A study of Drosophila melanogaster with 4 samples.

Results

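Dimethylation of lysine 36 of histone H3 (H3K36me2) was mapped by chromatin immunoprecipitation and sequencing (ChIP-seq) in head nuclei of mixed adult, wild-type Oregon-R Drosophila melanogaster. The labels give 2 ChIP samples, each with an input DNA sample as its background, and no treatment, mutant or second tissue. Enriched regions were deposited by the authors as 3 lists, namely 1 per ChIP replicate and a replicate-set list. The isolated regions described here are those of the replicate-set list on 2L, 3L, 3R and X with no other region within 20 kb on either side. There were 219 of them among the 4793 regions of these 4 arms, and 6411 regions in the whole list.

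H3K36me2 is a mark of transcribed chromatin. In Drosophila it is placed by the methyltransferases NSD (also called MES-4) and Ash1, while Set2 adds the third methyl group on gene bodies. Heads are rich in neurons and photoreceptors but hold other cell types, and a region marked in few cells cannot be told apart from one marked weakly in many.

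Isolation was chosen from the spacing of the regions themselves, so lengths, scores and positions are given as a description of the 219 regions, with no test. Intervals treat regions as independent, though all come from the same 2 ChIP samples, so whether intervals overlap is not a test either. The replicate-set list comes from the same 2 ChIP samples as the replicate lists, so presence in a replicate list is not independent of the rule either. The score is the authors' value per region and has no stated scale. No sequence is shown, and no gene is named, because coordinates are those of FlyBase release 5 and the gene table used here describes release 6. Read depth is unknown. Nothing in the labels ties the replicates to separate collections of flies, so their spread may be technical.

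Isolated regions were a small part of the marked genome and were thinly spread over all 4 arms. They made up 4.57% of the regions of the 4 arms (Wilson 95% interval 4.01 to 5.20%, counting error only) and 4.12% of the covered length, 1.06 Mb in all. 3L held 63, 3R held 59, 2L held 49 and X held 48. Per megabase of arm this was 2.57 on 3L, 2.14 on X, 2.13 on 2L and 2.11 on 3R. As a share of an arm's regions it ran from 3.96% on X (interval 3.00 to 5.21%) and 4.26% on 3R to 4.79% on 2L and 5.38% on 3L (interval 4.22 to 6.82%). The intervals of all 4 arms overlap.

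The usual spacing of regions was far closer than 20 kb. The median gap between neighbours on the 4 arms was 2.45 kb, and 18.3% of the 4789 gaps were 20 kb or longer. A gap of that size on 1 side only was found beside 1318 regions, and 3256 had none. Among the isolated regions, the shorter of the flanking gaps had a median of 33.7 kb and the longer a median of 84.6 kb. The shorter gap reached 50 kb at 58 regions and 100 kb at 12. Of the 169 gaps of 100 kb or more on these arms, 87 had an isolated region at an end. Of all 878 gaps of 20 kb or more, 386 did. Gaps next to isolated regions made up 37.7% of all the sequence between regions. By the rule an isolated region always borders long gaps, so these values follow from it in part.

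The regions nearest the limit of 20 kb were of a few kilobases on both sides of it. Just inside were 3R 10523116 to 10530128, 7.01 kb long with a score of 2.00 and a shorter gap of 20.028 kb, and 2L 3124155 to 3127611, 3.46 kb with a score of 0.810 and a gap of 20.122 kb. The same gap was found at 3R 17638974 to 17647762, 8.79 kb with a score of 1.31. Just outside were 3L 21020787 to 21027909, 7.12 kb with a score of 0.693 and a gap of 19.996 kb, and 3L 10182851 to 10189300, 6.45 kb with a score of 0.622 and a gap of 19.938 kb. In all, 40 isolated regions had a shorter gap under 25 kb. Another 71 regions had a shorter gap of 15 to 20 kb beside a longer one of at least 20 kb.

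The flanks were almost empty in the replicate lists too, but the make-up of these lists nearly fixes this. Of the 4646 regions of the replicate 1 list, 191 overlapped an isolated region and 4448 another region of the replicate-set list. In replicate 2 it was 184 and 4381 of 4569. Few regions of either list were left that could lie in a flank, so its emptiness there is no separate evidence. Another region of the replicate 1 list lay within 20 kb of 1 of the 219, and no other region of the replicate 2 list lay within 20 kb of any of them. No region that the replicate-set list names as depleted lay there either. How many depleted regions these arms hold was not counted, so this says little about the flanks. Of the 181 isolated regions present in the replicate 1 list, 170 overlapped a region that met the same 20 kb rule within that list. In replicate 2 it was 165 of 174. An empty flank means that no region was called there, which at unknown depth is not the same as absence of the mark.

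Beyond 20 kb the surroundings were marked, at a lower level than around other regions. From 20 to 100 kb on both sides of the isolated regions, 19.9% of the sequence was covered in the replicate-set list, against 31.2% around the other regions and 26.2% of the 4 arms as a whole. In replicate 1 the values were 17.8 and 28.1%, and in replicate 2 they were 17.7 and 28.2%. Coverage in the replicate-set list rose from 8.45% between 20 and 30 kb to 23.7% between 90 and 100 kb. The gaps beside isolated regions often run past 20 kb, so the rule shapes these values too. At 12 isolated regions the whole 100 kb on each side held no region. The words unmarked surroundings therefore hold for the 20 kb that the rule asked for and, on the nearer side, for a median of 33.7 kb.

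**Figure D1:**
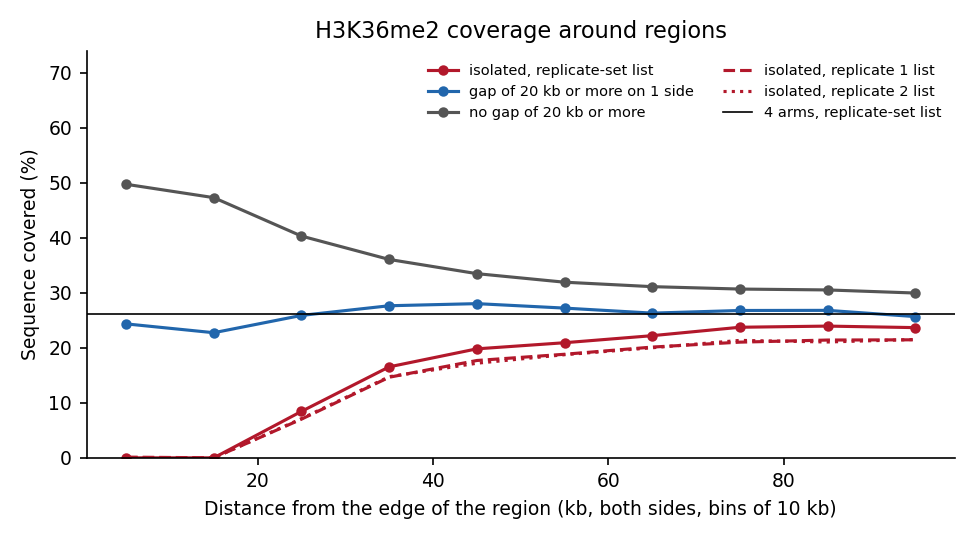
Share of sequence covered by H3K36me2 regions (vertical axis, %) in bins of 10 kb against the distance from the edge of a region (horizontal axis, kb, both sides pooled). Solid lines with points use the replicate-set list for isolated regions, regions with a gap of 20 kb or more on 1 side and regions with none, the dashed and dotted lines show isolated regions in each replicate list, and the thin line is the 26.2% of the 4 arms. Around isolated regions the replicate-set line is at 0 up to 20 kb by the rule and reaches 23.7% at 90 to 100 kb.

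Isolated regions were about as long and as high in score as the regions that have near neighbours. Their median length was 3623 bp (95% interval of the median from order statistics, 3062 to 4095 bp), against 3810.5 bp for the other regions (3684 to 3939 bp). The median score was 0.810 (0.703 to 0.924) against 0.859 (0.835 to 0.876). A length above the median of the 4 arms was found in 47.9% of the 219, and a score above it in 47.5%. Both pairs of intervals overlap.

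The tails were also compared. At 10 kb or more were 22 of the 219 isolated regions, 10.0% (Wilson 95% interval 6.73 to 14.7%). Of the others it was 12.8% (11.8 to 13.8%), an interval that lies within the first. The 95th percentile of length was 10935.6 bp against 14533.5 bp. The 5th percentile of score was 0.342 among isolated regions and 0.255 among the others. Both percentiles rest on few isolated regions and carry no interval.

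Within classes of equal length the scores were close. Between 3001 and 5000 bp the median score was 0.921 in 58 isolated and 0.947 in 1052 other regions, and between 5001 and 10000 bp it was 1.23 in 48 and 1.21 in 1165. Above 10000 bp it was 1.58 in 22 and 1.52 in 584. The widest difference was in the shortest class, up to 1500 bp, with 0.445 in 20 isolated and 0.337 in 413 other regions. Longer regions had higher scores in both groups, with a Spearman rho across regions of 0.74 for the isolated and 0.82 for the others. Across the 219, the shorter gap had a rho of -0.03 with length and 0.02 with score. All these regions come from the same 2 ChIP samples, so the coefficients are descriptions.

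**Figure D2:**
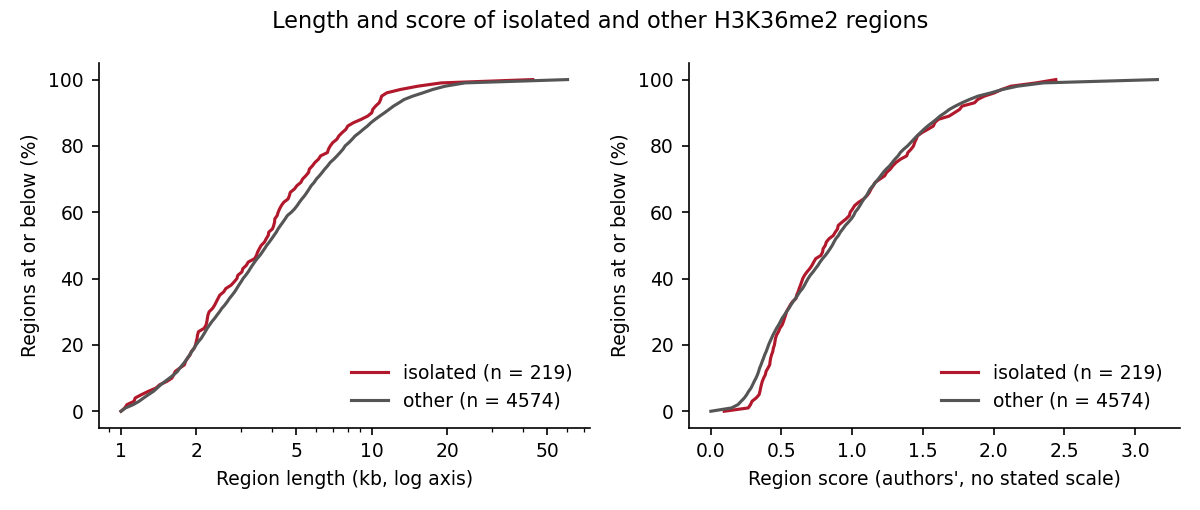
Cumulative share of regions (vertical axes, %) against region length in kb on a log axis (left) and against the authors' score, which has no stated scale (right). The red line is the 219 isolated regions and the grey line the 4574 other regions of 2L, 3L, 3R and X. The lines run close together, with medians of 3623 and 3810.5 bp and of 0.810 and 0.859, and the red line stops short of the longest and highest values.

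Isolated regions were shortest on X, as the other regions were. The median length of the isolated regions was 4147 bp on 2L, 3549 bp on 3L, 3198 bp on 3R and 3033 bp on X. The other regions had medians of 4032, 3863, 3952 and 3481.5 bp in the same order, so 2L was the one arm where the isolated regions had the higher median. The longest isolated region of X measured 10.7 kb, against 19.4 kb on 2L, 33.5 kb on 3L and 43.8 kb on 3R. Median scores of isolated regions were 0.810 on 2L, 0.803 on 3L, 0.836 on 3R and 0.790 on X, each below that of the other regions of the arm (0.845, 0.854, 0.858 and 0.876).

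Most isolated regions were found again in each replicate. Of the 219, 181 overlapped a region of the replicate 1 list and 174 one of the replicate 2 list. Both lists held 168, or 76.7% (Wilson 95% interval 70.7 to 81.8%). The background is 82.4% of all 4793 regions of these arms, and the other regions alone gave 82.7% (81.6 to 83.8%). The interval of the isolated regions only just reaches into that of the others, at 81.8 against 81.6%. Presence was slightly more frequent among regions with a long gap on 1 side (83.8%) than among those with none (82.2%), so the share did not fall step by step with the number of long gaps.

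Absence from both replicate lists was found at 32 isolated regions, 14.6% (10.5 to 19.9%). The background is 9.79% of all regions and 9.55% of the others (8.74 to 10.4%). The intervals of isolated and other regions end close to each other, at 10.54 and 10.44%, which decides nothing, and no test was made. These shares are not matched for length. The median of the 32 isolated regions was 1428.5 bp in length and 0.422 in score. A further 19 were in a single replicate list, 13 in replicate 1 and 6 in replicate 2, or 8.68% against a background of 7.78%. Their medians were 2036 bp and 0.439. The 168 present in both lists were longer and higher in score, with medians of 4331 bp and 0.980. By arm, the share present in both lists was 83.7% on 2L, 79.4% on 3L, 72.9% on 3R and 70.8% on X, and among the other regions it was 84.7, 83.8, 83.9 and 78.7%.

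The isolated regions in both lists were 1818 bp or longer, those in a single list reached 2549 bp and those in neither 2398 bp. All 128 isolated regions longer than 3 kb were in both replicate lists, as were 2786 of 2801 other regions of that length. Of the 91 isolated regions of 3 kb or less, 40 were in both. Up to 1500 bp none of the 20 was in both (interval 0 to 16.1%) and 1 of the 413 others was. The shortest region of either replicate list on these arms was 1301 bp, against 1001 bp in the replicate-set list. Of the isolated regions 14 were shorter than 1301 bp, or 6.39%, and of the others 5.18%.

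In presence in both lists, isolated and other regions lay furthest apart in the class from 2001 to 3000 bp. There 30 of 44 isolated regions were in both lists, 68.2% (53.4 to 80.0%), against 762 of 846 others, 90.1% (87.9 to 91.9%). No test was made, since the replicate lists also underlie the list from which the regions were chosen. In replicate 1 alone it was 38 of 44 and 95.4%, and in replicate 2 alone 33 of 44 and 92.7%. In each list alone the class from 1501 to 2000 bp lay further apart. There each list held 48.1% of the 27 isolated regions, against 63.6 and 67.1% of the 514 others. Both lists held 37.0 and 45.5%, and 11 of the 27 and 76 of the 514 were in neither. From 2001 to 3000 bp the isolated regions were also shorter, with a median of 2329 against 2446 bp, and lower in score, with a median of 0.531 against 0.581. The part of length and score in these results was not tested.

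**Figure D3:**
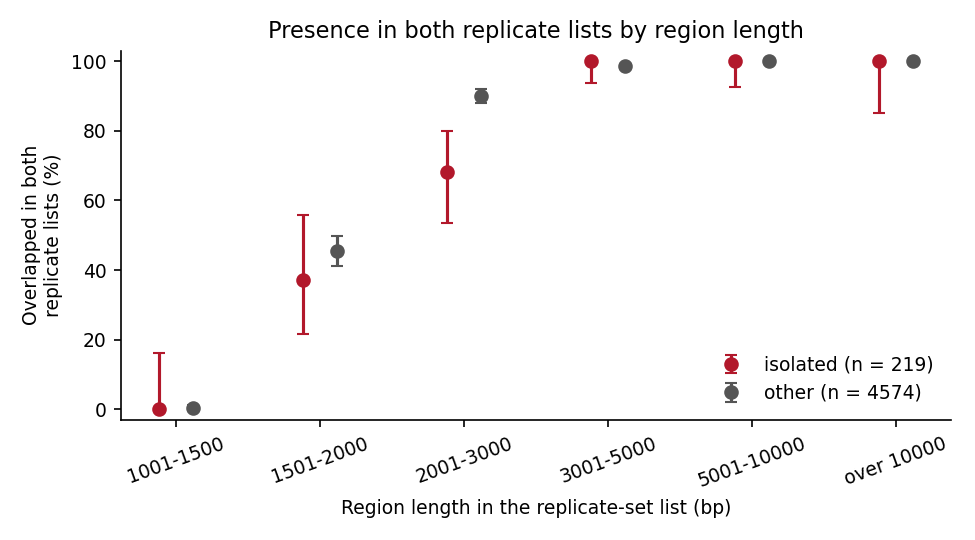
Share of regions overlapped by 1 bp or more in both replicate lists (vertical axis, %) in 6 classes of region length (horizontal axis, bp). Red points are isolated regions and grey points other regions, and bars are Wilson 95% intervals that cover counting error only. Both groups go from about 0 in the shortest class to 98.6% or more above 3000 bp, and they lie furthest apart from 2001 to 3000 bp, at 68.2 and 90.1%.

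Where a single region of each replicate matched an isolated region, the matches were mostly close in place and score. Such matches were found for 154 of the 219, while 168 were present in both lists, and the values below leave out the rest. Their starts differed by a median of 83.5 bp and their ends by 103.5 bp, and in 54.5% of the 154 both edges lay within 200 bp. For the 3150 other regions matched in this way the medians were 90 and 89 bp, and both edges lay within 200 bp in 59.9%. Scores differed by a median of 0.0875 among isolated and 0.0757 among other regions, and the 95th percentile of the difference was 0.279 among isolated and 0.250 among other regions. Replicate 1 was the higher one at 109 of the 154 isolated and at 1803 of the 3150 other regions. Across the 154 regions, which share their libraries, r was 0.96 (Pearson) and rho was 0.94 (Spearman), as a description.

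Within the replicate lists, the median length of those that overlapped an isolated region was 3821 bp for replicate 1 and 3874 bp for replicate 2. This is 3848 ± 37.5 bp (SD, n = 2), against 3649 ± 40.0 bp (SD, n = 2) for those that overlapped the other regions. The difference has the opposite sign in the replicate-set list, where isolated regions had the lower median. The 2 comparisons do not count the same things. The replicate medians are over single replicate regions (191 and 184 for isolated, 4448 and 4381 for other regions). They leave out regions that the replicate list lacks. Among replicate-set regions present in both lists, the median was 4331 bp for isolated and 4571 bp for other regions. The median scores were 1.00 in replicate 1 and 0.980 in replicate 2, or 0.990 ± 0.014 (SD, n = 2), against 0.993 ± 0.0076 (SD, n = 2). Isolated regions were in more than 1 piece in either replicate in 14 cases, 6.39% (3.85 to 10.4%), against 13.3% of the others (12.3 to 14.3%).

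**Figure D4:**
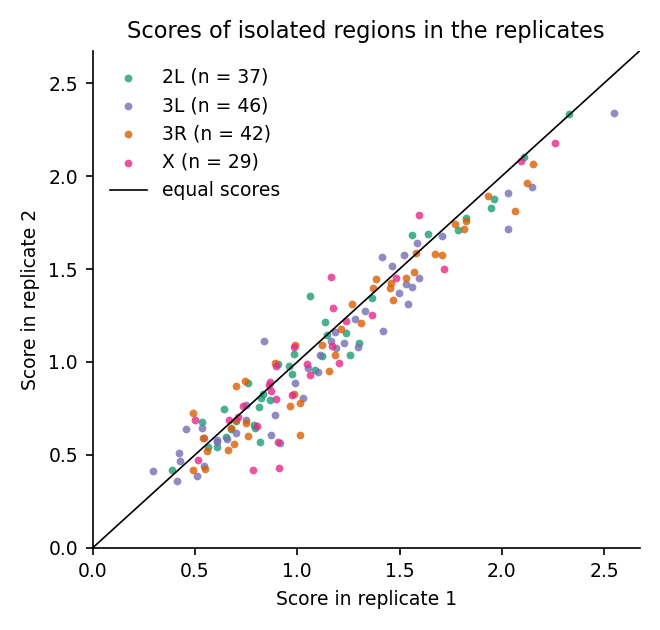
Score in replicate 2 (vertical axis) against score in replicate 1 (horizontal axis) for the 154 isolated regions that a single region matched in each replicate, coloured by chromosome arm. The line marks equal scores, and 109 of the 154 points lie below it, where replicate 1 is higher.

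The longest isolated regions were broad domains, some of them with a shorter gap close to the limit of 20 kb. At the top stood 3R 24517011 to 24560778, which measured 43.8 kb, scored 2.10 and lay between gaps of 71.7 and 74.4 kb. It was 43.8 kb with a score of 2.15 in replicate 1 and 43.4 kb with a score of 2.07 in replicate 2. Next was 3L 5127139 to 5160660, 33.5 kb with a score of 1.44, which was 1 region in replicate 1 and 2 in replicate 2. Its gaps were 20.6 and 176 kb, and its nearer neighbour, 3L 5104912 to 5106511, was in neither replicate list. On 2L the longest was 19953304 to 19972745, 19.4 kb with a score of 1.46 and gaps of 21.5 and 83.9 kb. It was split into 2 regions in replicate 1 and into 3 in replicate 2. After it came 3R 10333708 to 10350084, 16.4 kb, whose score of 0.873 was the lowest of these 5, and 2L 3862465 to 3878668, 16.2 kb with a score of 2.01. Together these 5 regions held 12.2% of the length of all isolated regions.

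Among the 5 highest scores were 3 regions of 10 to 14 kb and a pair of very short ones. The 3 were 3L 2718152 to 2731633 with 2.41, 2L 17963159 to 17976356 with 2.32 and X 17349899 to 17360626 with 2.21, which is also the longest isolated region of X. In replicate 1 they scored 2.55, 2.33 and 2.26, and in replicate 2 they scored 2.34, 2.33 and 2.18. The pair were 3R 2005557 to 2006579, 1023 bp with the highest score of all, 2.44, and X 20714059 to 20715059, 1001 bp with 2.13. Neither overlapped a region of a replicate list.

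Some high-scoring isolated regions were in no replicate list. A score in the top 25% of the 4 arms, above 1.28, belonged to 57 isolated regions, and 6 of these were in neither replicate list, 10.5% (4.91 to 21.1%). Of the 1141 other regions with such a score it was 3, or 0.263% (0.0895 to 0.770%). Besides the pair above, the 6 were X 21547748 to 21549595 (score 1.77), 3R 831536 to 833547 (1.76), 2L 21538383 to 21540187 (1.51) and 3L 5104912 to 5106511 (1.46). All 6 were between 1001 and 2012 bp long, and 5 of them lay in the 10% of their arm next to the centromere, which held 25 of the 219 isolated regions, 11.4%. The 3 other regions were alike in this, at 1001 to 1299 bp, with 2 of the 3 in that part of 3L. Up to 1500 bp such a score belonged to 2 of 20 isolated and 3 of 413 other regions, all of them in neither list. The 10.5 and 0.263% are thus not matched for length. The group of 6 was chosen after its values were seen, no test of the difference was made, and no explanation was tested.

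The 5 isolated regions with the widest empty flanks were 1376 to 7867 bp long, with scores of 0.386 to 1.55. The first was 3L 18450568 to 18453618, with 286 kb before it and 159 kb after it, 3.05 kb long with a score of 0.440. It scored 0.454 in replicate 1 and 0.638 in replicate 2. Next were X 2843682 to 2851548, 7.87 kb with a score of 1.55, between gaps of 157 and 171 kb, and 3L 14221816 to 14229263, 7.45 kb with a score of 1.09 between gaps of 145 and 165 kb. In replicates 1 and 2 that 3L region scored 1.19 and 1.08, and the X region was 8.04 and 6.89 kb long. The last of the 5 were 2L 15905622 to 15907183 and 2L 14845303 to 14846678. They were 1562 and 1376 bp long, both scored 0.39, and neither was in a replicate list.

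The longest isolated regions that no replicate list held were 2L 11436949 to 11439346 at 2398 bp, 3L 15332560 to 15334784 at 2225 bp and 3R 831536 to 833547 at 2012 bp. In the same order they scored 0.420, 0.426 and 1.76, against a median of 0.810.

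Some isolated regions followed each other along an arm. Of the 219, 92 stood next to another isolated region, in 40 runs, and 127 did not. By the rule, each region next to an isolated one has a gap of 20 kb or more on at least 1 side. Of the 426 such neighbours, 92 were isolated. Among all regions with such a gap, 219 had it on both sides and 1318 on 1 side only. Whether the runs are more than this spacing gives was not tested. There were 31 runs of 2, 7 runs of 3, 1 of 4 and 1 of 5. The run of 5 lay on 2L from 14390808 to 14977716, in a stretch of 640 kb of which 2.81% was marked. Its regions scored 0.451, 0.986, 1.89, 0.386 and 0.659 in order of position, and 3 of the 5 were in both replicate lists. The 3 scored 0.984, 1.96 and 0.702 in replicate 1 and 1.04, 1.88 and 0.682 in replicate 2. The first of the run was in replicate 1 only, at 0.665, and the one that scored 0.386 was in neither list. The run of 4 lay on X from 14366204 to 14653936, in a stretch of 506 kb with 1.89% marked. The 334 regions next to an isolated one that were not isolated themselves had medians of 3838.5 bp and 0.849, close to those of all other regions.

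Along the arms, isolated regions were found from end to end, and a part of X held few of them. Each arm was divided into 10 equal segments, numbered from 1 at the telomere to 10 at the centromere. On X, segments 3 to 6 held 7 of 48 isolated regions, 14.6% (7.25 to 27.2%), and 480 of 1164 other regions, 41.2% (38.4 to 44.1%). The same segments held 34.7% of the isolated and 47.0% of the other regions of 2L, 39.7 and 36.5% on 3L, and 44.1 and 38.9% on 3R. Segments 2 and 10 of X held 9 isolated regions each, 11.4 and 10.2% of their regions, against 3.96% on X as a whole. The most isolated regions in any segment was 11, in segment 4 of 3R, where they were 8.03% of the regions. Next by number was 10, in segment 7 of 2L and segment 2 of 3L. By share, segment 7 of 2L stood first of the 40 segments at 17.5%, and segment 2 of 3L had 7.41%. These places were chosen after their values were seen. Over the 4 arms together, segments 1 and 10 held 50 of the 219, 22.8% (17.8 to 28.8%), and 19.5% of the others (18.3 to 20.6%).

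**Figure D5:**
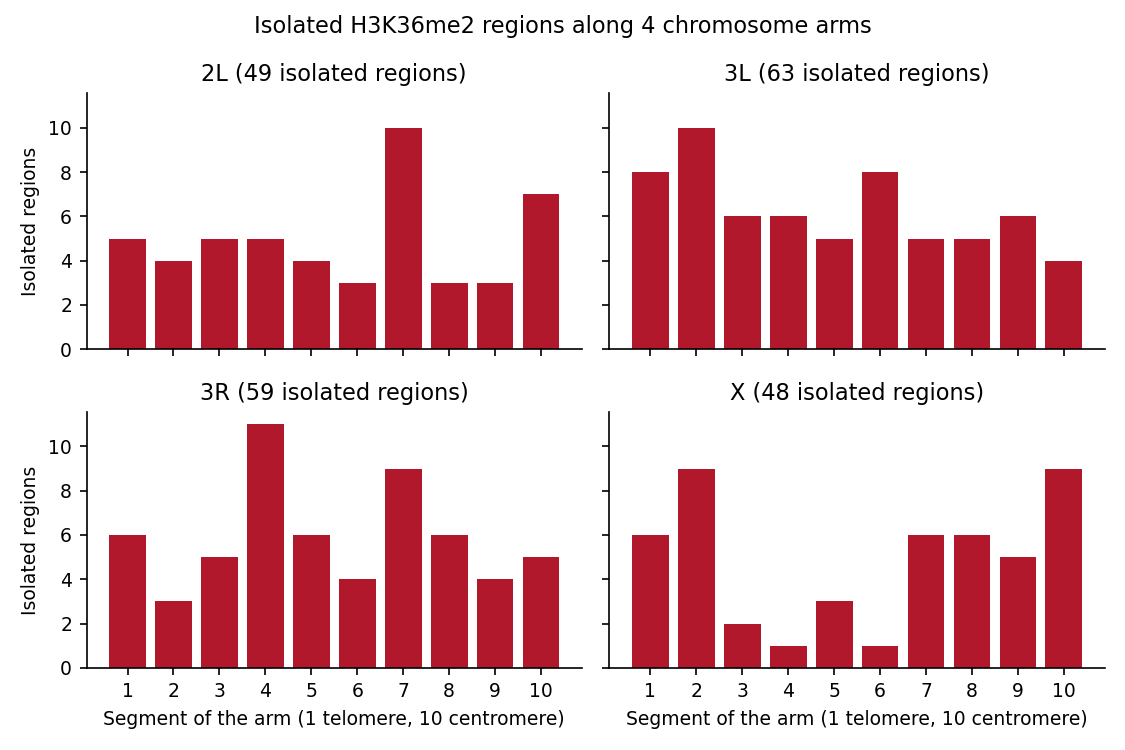
Number of isolated regions (vertical axes) in each of 10 equal segments of 2L, 3L, 3R and X, counted from the telomere (1) to the centromere (10). On X segments 3 to 6 hold 7 of the 48, and the most in any segment is 11, in segment 4 of 3R.

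In 194 windows of 500 kb, 133 held at least 1 isolated region and none held more than 4. Ranked by covered share, windows with more coverage had a smaller share of isolated regions. In the lowest 25% of windows (2.50 to 19.2% covered) there were 1.39 isolated regions per window, in the next 25% 1.27, and then 1.31. In the highest 25% (32.2 to 58.0%) there were 0.490. Of all regions in these windows, 9.66% were isolated in the lowest 25%, then 5.81 and 4.67%, and 1.45% in the highest 25%. The rule needs at least 40 kb without a region around each one, which leaves less room for isolated regions where coverage is high.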

How the data were processed

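Enriched regions of head-nuclei H3K36me2 ChIP-seq (2 ChIP samples, 2 inputs) were read from the 3 lists the authors deposited. Alignment used Bowtie 0.12.7 according to the submitters' processing notes, and coordinates are FlyBase release 5, per the file headers. Not given in the sources used here are the region caller, its threshold and how replicates were combined. The score of each region is the authors' deposited value, of unstated scale. It was used within a list, and between lists only for matched regions.

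Gaps were counted in bases between neighbouring regions of an arm, and an isolated region has 20000 bp or more on both sides. The first and last region of an arm (8 in all) have a single neighbour and could not be members. A region was present in a replicate when 1 bp overlapped. Where several replicate regions overlapped 1 region, their score is the length-weighted mean. The top 25% of scores was taken over all 4793 regions. Shares carry Wilson 95% intervals, which cover counting error only. No test was made, because the rule uses the same lists. Functions were tested on simulated region lists and against bedtools 2.31.1.

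Named regions are the 5 longest, the 5 highest in score, the 5 with the largest shorter gap, the longest of each arm, the 3 longest in neither replicate list and those nearest the limit. Any other was chosen after its values were seen. The members and lists were chosen with earlier results of these data known. Alternatives changed the gap, arm ends, joining, score, overlap, reference lists and replicates. Inputs entered only through the authors' lists. Software was Python 3.11.15 with pandas 2.3.3, SciPy 1.17.1, NumPy 2.4.6 and matplotlib 3.10.9.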

Additional observations from a re-analysis of the deposited data

How the results depend on the processing

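For 7 results, 40 alternatives were tried. A value stayed within 1.5 times (counts), its 95% interval (shares and medians) or 1 SD of the replicates under 31 of them. It moved further under 9. Whether a difference from the other regions changed sign was not assessed under these alternatives. The number of isolated regions was 432 with a gap of 10 kb and 58 with 50 kb, by construction. Joining regions closer than 1 kb gave a median length of 4297 bp. Keeping the higher-scoring 50% of the list gave 305 isolated regions, 104 of them among the 219, with a median length of 6191 bp, a median score of 1.31 and 98.0% present in both lists. Higher-scoring regions are longer, so these values rise with the filter itself. Counting only members of at least 1301 bp, chosen after seeing the data, gave 82.0% present in both, and the same limit gave 87.2% of the other regions. Applying the rule within each replicate list gave a mean of the medians of 3770 bp, and the cause was not tested. Leaving out a replicate leaves presence in the other list alone, 79.5 to 82.6%, and the higher value, without replicate 2, lies above the interval of 70.7 to 81.8%. Presence in 1 list cannot be less frequent than presence in both. Single-list medians were 3821 to 3874 bp and 0.980 to 1.00, within 1 SD by construction. Counting arm ends as gaps added no region. No paired analysis was possible because the inputs have no lists of their own here, which leaves 1 group of ChIP samples. Since depth is unknown, a region that a replicate list lacks may still have been marked in that sample, under the threshold of the list.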

Other observations

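Each replicate list also held regions that met the 20 kb rule there but overlapped no isolated region of the replicate-set list. In replicate 1 there were 39 among 209, and 37 of the 39 lay on a replicate-set region that has a nearer neighbour. In replicate 2 there were 48 among 213, and all 48 did. Regions that met the rule within their own list had, in replicates 1 and 2, median lengths of 3776 and 3764 bp, against 3621 and 3679 bp for those that did not, and median scores of 0.989 and 0.964 against 0.998 and 0.988.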
